A study of Mus musculus with 23 samples.

Results

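The receptors through which vasoconstrictor and vasodilator hormones, amines and lipids act on vascular smooth muscle were examined at the transcript level in 3 arterial beds. The set held 10 genes chosen by symbol, namely the constrictor receptors Avpr1a, Adra1a, Adra1b, Adra1d, Htr2a, Htr2b, Tbxa2r and P2rx1 and the dilator receptors Ptgir and Bdkrb2, and every probe annotated to one of them was used. The array annotation gave 14 probes for 8 of the 10 genes, out of 45281 probes on the chip, and no probe carried the symbol Adra1a or Adra1d. Vessels came from male C57BL/6J mice aged 12 weeks at the start, which carried osmotic minipumps under the skin for 14 days that delivered vehicle (Sham) or Ang II (AngII, 490 ng/kg/min). RNA of the thoracic aorta (3 AngII and 3 Sham arrays), the abdominal aorta (3 and 3) and branches of the superior mesenteric artery (6 and 5) was hybridised to Illumina WG-6 v2.0 BeadChips, 23 arrays in total. Each array held RNA pooled from 2 vessels of one type and treatment, so replicates are pools, and p-values reflect how far pools of a group differ. The paper states fewer mice for the profiling than vessels were pooled, so pools of different vessel types must share mice. The labels do not tie them. Tests between vessels, and of AngII effects between vessels, treated all arrays as independent, so their p-values do not account for shared mice.

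Vascular tone is set by receptors that raise or lower calcium and its effect on myosin in smooth muscle cells. Receptors for vasopressin, noradrenaline, serotonin and thromboxane act through G proteins that activate phospholipase C, and the ATP-gated channel P2rx1 admits cations directly at sympathetic nerve endings. Prostacyclin acts on Ptgir through cyclic AMP to relax the muscle, and bradykinin acts on Bdkrb2, mostly of the endothelium, to release dilator mediators.

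Detection means a detection p below 0.01 on that array, and tests covered the 20585 transcripts that 3 or more arrays detected. The arrays detected 17432 to 18657 transcripts each (median 18127). Levels below are log2 of the background-corrected, quantile-normalised signal, and a difference passed at an adjusted p under 0.05 from limma over all transcripts tested. Levels of different probes cannot be compared with each other. All 12 smooth muscle markers examined, Acta2 and Myh11 among them, were detected on every array. The trypsinogen transcript Try4, from pancreas, was detected on 4 of 5 Sham and 6 of 6 AngII mesenteric arrays and on 0 aortic arrays, and 3 mesenteric arrays were far richer in it, at 14.04 and 12.37 (AngII) and 14.01 (Sham) against at most 7.91 on the other mesenteric arrays. An abdominal Sham array carried skeletal muscle actin Acta1 at 11.19 against at most 5.18 on the other abdominal arrays, while mesenteric arrays held it at 7.42 to 9.14. The vessels are mixed tissue, in which fewer cells of a type and less RNA per cell cannot be told apart.

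Upstream sequence is shown for 4 receptors, P2rx1, Ptgir and Avpr1a because their transcripts were lowest in Sham thoracic aorta, and Tbxa2r because its transcript differed the other way from mesenteric arteries. Each run is the 250 bases before the annotated transcription start in RefSeq (build GRCm38.p6), all on the plus strand, with motif matches in capitals. For Tbxa2r the first of 2 annotated starts was used.
P2rx1, chr11:72998895-72999144: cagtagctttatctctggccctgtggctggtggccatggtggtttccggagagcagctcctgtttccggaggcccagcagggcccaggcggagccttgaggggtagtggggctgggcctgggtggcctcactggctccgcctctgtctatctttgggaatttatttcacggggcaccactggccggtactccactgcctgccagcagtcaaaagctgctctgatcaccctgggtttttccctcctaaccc
Ptgir, chr7:16906240-16906489: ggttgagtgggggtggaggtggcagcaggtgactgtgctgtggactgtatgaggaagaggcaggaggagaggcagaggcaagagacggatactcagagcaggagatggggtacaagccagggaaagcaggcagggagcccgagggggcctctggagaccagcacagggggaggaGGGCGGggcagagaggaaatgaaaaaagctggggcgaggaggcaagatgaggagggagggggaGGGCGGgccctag
Avpr1a, chr10:122448249-122448498: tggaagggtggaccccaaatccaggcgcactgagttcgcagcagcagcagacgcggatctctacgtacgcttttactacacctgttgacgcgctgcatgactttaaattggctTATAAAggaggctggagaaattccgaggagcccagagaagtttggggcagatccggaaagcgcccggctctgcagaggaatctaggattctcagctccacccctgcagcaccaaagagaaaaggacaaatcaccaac
Tbxa2r, chr10:81328018-81328267: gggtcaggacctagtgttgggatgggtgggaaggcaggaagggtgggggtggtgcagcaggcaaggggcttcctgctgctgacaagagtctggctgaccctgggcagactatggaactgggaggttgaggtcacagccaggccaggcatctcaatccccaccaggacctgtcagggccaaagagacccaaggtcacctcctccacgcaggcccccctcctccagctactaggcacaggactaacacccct
Both strands were searched for the CArG box bound by serum response factor, the GC box GGGCGG, the TATA motif TATAAA and the AP-1 motif TGANTCA, and no matches overlapped each other in these windows. The Ptgir window held 2 GC boxes and the Avpr1a window a single TATA motif, and the windows of P2rx1 and Tbxa2r held none of these letters. Of 32851 mouse promoter windows of this length, 32.7% held a GC box, 12.4% a TATA motif, 6.75% an AP-1 motif and 1.47% a CArG box. Promoter sequence was found for 8 of the 10 receptors, and among their 10 windows 3 held a GC box, 2 an AP-1 motif (Adra1b and Htr2b) and 0 a CArG box. Upstream GC content was 61.2% for P2rx1, 63.6% for Ptgir, 53.6% for Avpr1a and 62.4% for Tbxa2r, with a median of 52.4% over all windows.

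In all, 8 probes of 5 receptors were detected often enough to be tested, namely 2 probes each of Avpr1a, Tbxa2r and P2rx1 and the single probes of Htr2b and Ptgir. Baseline levels differed between vessels for all 5 receptors. In Sham mice 8 of 8 probes differed between thoracic aorta and mesenteric arteries, 2 higher and 6 lower, where 51.8% of all transcripts tested differed, 29.2% higher and 22.5% lower, and 8 of 8 had arrays that did not overlap, against 50.1%. Between abdominal aorta and mesenteric arteries 7 of 8 differed, 4 higher and 3 lower, against 45.9% of all transcripts (24.9% higher and 21.0% lower), and 6 of 8 did not overlap, against 42.6%. Between thoracic and abdominal aorta 6 of 8 differed, all lower in thoracic aorta, against 13.8% (7.35% lower), and the arrays of 6 of 8 did not overlap, against 33.5%. AngII moved fewer of them. In thoracic aorta 3 of 8 probes passed, 2 lower and 1 higher, against 17.3% of all transcripts (8.62% lower and 8.63% higher), and 4 of 8 had AngII and Sham arrays that did not overlap, against 36.9%. In abdominal aorta 1 of 8 passed (lower) against 1.09% of all transcripts (0.121% lower), and 3 of 8 did not overlap against 21.1%. In mesenteric arteries 1 of 8 passed (higher) against 0.340% (0.287% higher), and 1 of 8 did not overlap against 2.52%. The median log2 difference over the 8 probes was 0.19 in thoracic aorta, 0.04 in abdominal aorta and 0.19 in mesenteric arteries, where the medians over all transcripts were −0.02, −0.02 and −0.00.

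**Figure D1:**
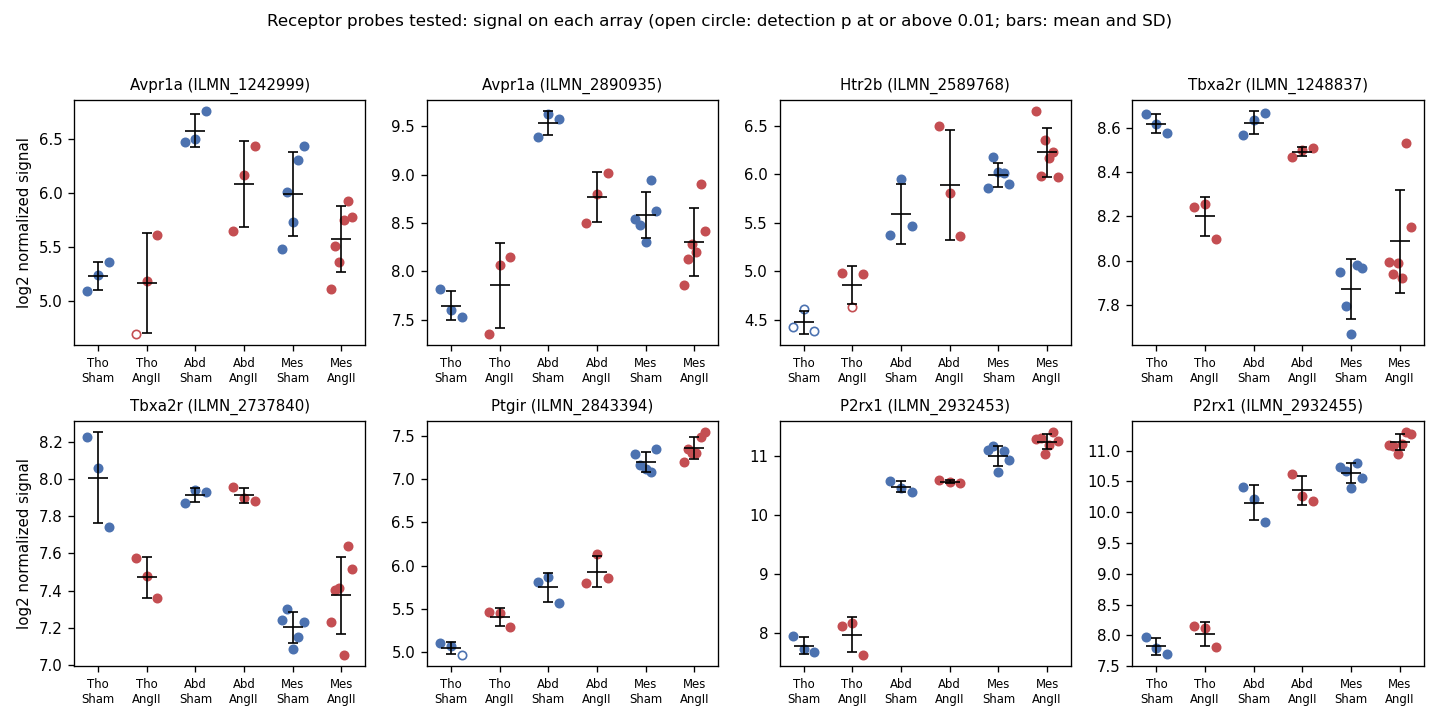
Log2 normalised signal (vertical axis) of the 8 receptor probes tested on each of the 23 arrays, by vessel (Tho, Abd, Mes) and treatment, with blue points for Sham, red for AngII, open points where the detection p was 0.01 or more, and bars for mean and SD. P2rx1 lay at 7.68 to 7.96 in Sham thoracic aorta and at 10.74 to 11.18 in Sham mesenteric arteries (probe ILMN_2932453), while both Tbxa2r probes were lower in AngII than in Sham thoracic aorta with no overlap.

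P2rx1, the ATP-gated cation channel that carries the purinergic part of sympathetic constriction, showed the widest range between vessels. Probe ILMN_2932453 read 7.96, 7.74 and 7.68 in Sham thoracic aorta, 10.59, 10.46 and 10.40 in Sham abdominal aorta and 11.11, 11.18, 10.74, 11.09 and 10.93 in Sham mesenteric arteries. The 3 sets of Sham arrays did not overlap, and thoracic aorta was by far the lowest. In thoracic aorta the level was 9.30-fold below that of mesenteric arteries (log2 difference −3.22, SE 0.12, adjusted p = 5.52e-16) and 6.46-fold lower than in abdominal aorta (−2.69, SE 0.13, adjusted p = 2.99e-12), both from limma. Abdominal aorta was 1.44-fold lower than mesenteric arteries (−0.53, SE 0.12, adjusted p = 0.000742). The probe ILMN_2932455 read 7.97, 7.80 and 7.69 in thoracic aorta, 10.40, 10.22 and 9.84 in abdominal aorta and 10.74, 10.68, 10.39, 10.81 and 10.56 in mesenteric arteries. Here one abdominal array (10.40) overlapped the lowest mesenteric array (10.39). Its differences were −2.81 (SE 0.13) between thoracic aorta and mesenteric arteries, −2.33 (SE 0.15) between thoracic and abdominal aorta and −0.48 (SE 0.13, adjusted p = 0.00434) between abdominal aorta and mesenteric arteries, the last of which did not pass without the abdominal array at 9.84 (−0.32, adjusted p = 0.0624). Both probes followed each other over the 23 arrays (Pearson r 0.993, a description over arrays that share vessels and treatments).

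The low P2rx1 signal of the thoracic aorta stood beside smooth muscle markers of which 9 of 12 were higher and 2 lower than in mesenteric arteries (median log2 difference 0.46), or 5 higher and 2 lower in the authors' values (median 0.01 against −0.28 over all transcripts). Their summed level on a log2 scale was 16.34 to 16.41 on Sham thoracic, 16.34 to 16.38 on Sham abdominal and at most 16.24 on Sham mesenteric arrays. Platelets also carry P2rx1, and 3 of 7 platelet markers were tested, with none from Gp9, Gp1ba, Gp6 or Treml1. Their summed log2 level was 8.74 to 8.97 on Sham thoracic, 8.84 to 9.0 on Sham abdominal and 9.59 to 10.06 on Sham mesenteric arrays, and 1 of the 3 was lower in thoracic than in mesenteric vessels (3 of 3 in the authors' values), while between the aortic compartments 0 of 3 differed by limma (2 of 3 lower in the authors' values). Fibroblast markers had the order of P2rx1, summing to 14.45 to 14.48 in thoracic, 14.88 to 14.96 in abdominal and 15.04 to 15.34 in mesenteric Sham arrays. Endothelial markers did too, at 12.70 to 12.86, 13.06 to 13.65 and 14.39 to 14.58. So did nerve and Schwann cell markers (4 of 10 tested), at 11.13 to 11.19, 11.25 to 11.53 and 12.21 to 12.44. The part of any of these cells in the P2rx1 levels was not tested.

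With AngII the mesenteric signal of P2rx1 was higher at probe ILMN_2932455, with a lowest value of 10.95, a median of 11.11 and a highest of 11.30 over 6 arrays. All 6 AngII arrays lay above all 5 Sham arrays. The difference was 0.50 (SE 0.09, 1.41-fold, adjusted p = 0.0396 from limma), and over the alternatives run the adjusted p ranged from 0.0197 to 0.106 (0.0693 without a detection filter). At probe ILMN_2932453 the AngII arrays ran from 11.04 through a median of 11.28 to 11.41 and overlapped Sham, with a difference of 0.24 (SE 0.09, adjusted p = 0.226) that did not pass. Without the 3 arrays richest in pancreatic RNA the difference at ILMN_2932455 was 0.55 with an adjusted p of 0.105, and leaving out any one of 8 of the 11 arrays also ended the call, at 0.0515 to 0.106. The summed smooth muscle markers stood at 16.14 to 16.49 on AngII and at most 16.24 on Sham mesenteric arrays, with 0 of 12 markers passing by limma (median 0.25) and 1 higher in the authors' values. Those of skeletal and heart muscle, of which 3 of 10 were tested, stood at 8.26 to 9.27 on AngII and 7.85 to 8.23 on Sham arrays, without overlap, of which Acta1 differed by 0.78 (SE 0.17, adjusted p = 0.0610) and did not pass. The part of either set in the P2rx1 difference was not tested. In thoracic aorta ILMN_2932453 read 8.12, 8.17 and 7.63 with AngII, and in abdominal aorta 10.60, 10.57 and 10.54. At ILMN_2932455 the AngII values were 8.16, 8.12 and 7.81 in thoracic and 10.62, 10.26 and 10.18 in abdominal aorta. All of these overlapped Sham, and the differences of 0.18 and 0.21 in thoracic and 0.09 and 0.20 in abdominal aorta did not pass (adjusted p = 0.280 to 0.736).

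**Figure D2:**
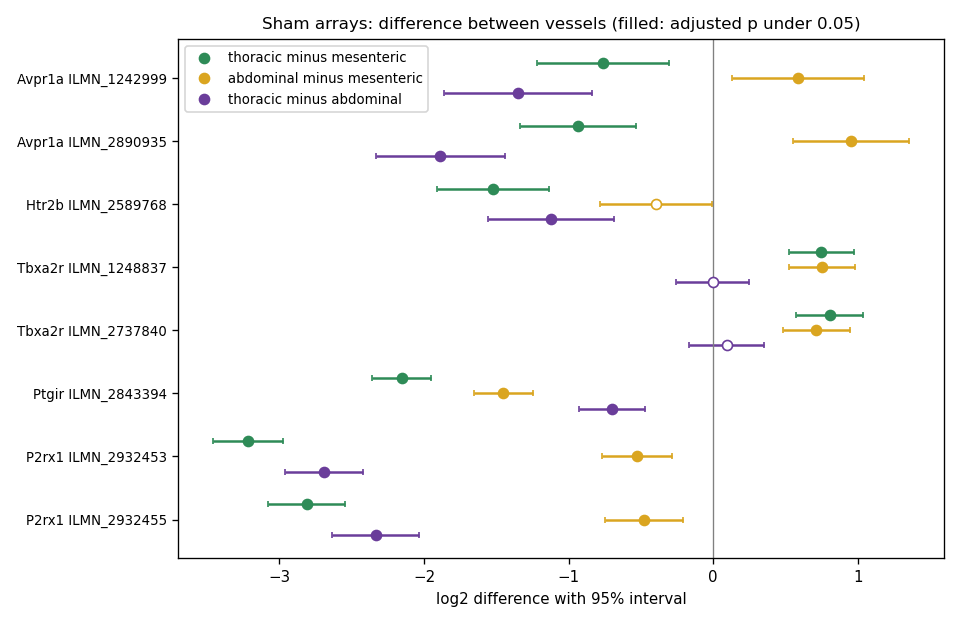
Log2 difference between vessels in Sham mice (horizontal axis, with 95% intervals from limma) for each receptor probe, in green thoracic minus mesenteric, in gold abdominal minus mesenteric and in purple thoracic minus abdominal, filled where the adjusted p was under 0.05. P2rx1 and Ptgir lay to the left of 0 in every comparison, and Tbxa2r lay right of 0 in both comparisons with mesenteric arteries and near 0 between the aortic compartments.

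Avpr1a encodes the V1a receptor, through which vasopressin constricts arteries. Probe ILMN_2890935 read 7.82, 7.60 and 7.53 in Sham thoracic aorta, 9.39, 9.63 and 9.58 in Sham abdominal aorta and 8.54, 8.48, 8.30, 8.95 and 8.62 in Sham mesenteric arteries. The order was thoracic, mesenteric, abdominal, with no overlap between any of them. Thoracic aorta was 3.70-fold below abdominal aorta (−1.89, SE 0.22, adjusted p = 1.26e-06) and 1.91-fold below mesenteric arteries (−0.93, SE 0.19, adjusted p = 0.000299), and abdominal aorta was 1.94-fold above mesenteric arteries (0.95, SE 0.19, adjusted p = 0.000303), by limma. Probe ILMN_1242999 gave 5.09, 5.24 and 5.36 in thoracic, 6.48, 6.50 and 6.76 in abdominal and 5.48, 6.01, 5.73, 6.30 and 6.43 in mesenteric Sham arrays, the same order without overlap. Its differences were −1.35 (SE 0.25) between the aortic compartments, −0.76 (SE 0.22) between thoracic aorta and mesenteric arteries and 0.59 (SE 0.22, adjusted p = 0.0337) between abdominal aorta and mesenteric arteries, and the last missed the threshold without any one of 5 arrays (adjusted p = 0.0537 to 0.130), with cyclic loess (0.0686) and without a detection filter (0.0800). The probes had a Pearson r of 0.914 over the 23 arrays. Summed mast cell markers had the same order, at 7.89 to 8.41 in thoracic, 9.06 to 9.63 in mesenteric and 10.69 to 11.01 in abdominal Sham arrays. Their mean levels overlapped between mesenteric (6.69 to 7.22) and abdominal arrays (6.76 to 7.57). Their part in the Avpr1a levels was not tested.

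In abdominal aorta Avpr1a was lower with AngII, where ILMN_2890935 read 8.50, 8.80 and 9.02. All 3 AngII arrays lay below the lowest Sham array (9.39). The fall was −0.76 (SE 0.15, 1.70-fold, adjusted p = 0.0479 from limma), close to the threshold, and the adjusted p ranged from 0.0171 to 0.160 over the alternatives, missing the threshold in the authors' values (−0.60, 0.106), without background correction (0.0503) and without a detection filter (0.144). It also missed it without the Sham array that carried skeletal muscle RNA (−0.83, adjusted p = 0.124), without either other Sham array (0.146 and 0.160), and without the AngII array at 8.50 (0.113) or at 8.80 (0.141). ILMN_1242999 read 5.65, 6.17 and 6.43 with AngII, also below all Sham arrays, with a difference of −0.50 (SE 0.19, adjusted p = 0.257) that did not pass. The summed smooth muscle markers of the abdominal aorta lay at 16.19 to 16.30 with AngII and 16.34 to 16.38 with Sham (0 of 12 passed, median −0.12), those of macrophages at 12.76 to 13.39 and 12.12 to 12.36 (2 of 9 higher), those of fibroblasts at 15.04 to 15.11 and 14.88 to 14.96 (1 of 8 higher, Pi16), and those of brown adipocytes at 8.91 to 12.61 and 9.45 to 10.02. Mast cell markers summed to 10.93 to 11.25 with AngII and 10.69 to 11.01 with Sham, with overlap. Their mean was 7.78 to 8.74 with AngII and 6.76 to 7.57 with Sham, and 0 of 5 passed (median difference 1.32). The part of these in the Avpr1a difference was not tested.

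In the other vessels Avpr1a did not pass. The thoracic AngII arrays read 7.35, 8.07 and 8.15 at ILMN_2890935 and 4.69, 5.18 and 5.61 at ILMN_1242999, the value of 4.69 not being above the detection limit. They lay on both sides of the Sham arrays, and the differences were 0.21 (95% interval −0.23 to 0.65) and −0.07 (−0.52 to 0.38). Without the AngII array at 7.35 the first became 0.46 with an adjusted p of 0.0435. In mesenteric arteries the AngII arrays ran from 7.86 through a median of 8.24 to 8.91 at ILMN_2890935 and from 5.10 through 5.63 to 5.92 at ILMN_1242999, overlapping Sham, with differences of −0.28 (−0.62 to 0.06) and −0.42 (−0.80 to −0.04, adjusted p = 0.270 over all transcripts).

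Of the alpha1 adrenergic receptors, which mediate constriction by noradrenaline, only Adra1b was represented. Neither of its probes was detected on any of the 23 arrays, with a lowest detection p of 0.286 for ILMN_2466647 and 0.113 for ILMN_2606415. Their levels ran from 4.20 to 4.38 and from 4.26 to 4.55, and no comparison was made. A probe not detected does not show that the transcript is absent.

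**Figure D3:**
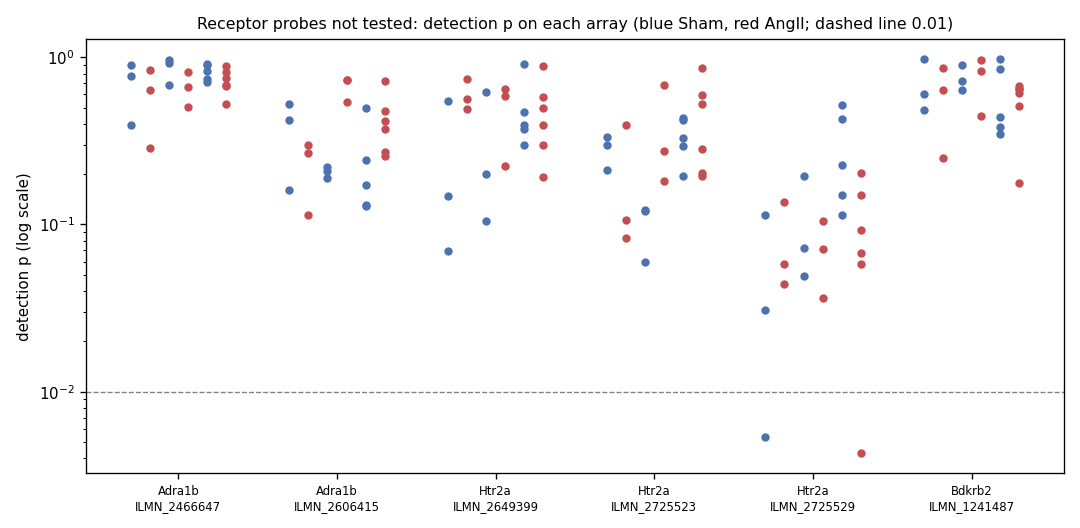
Detection p (vertical log axis) on each of the 23 arrays for the 6 probes of Adra1b, Htr2a and Bdkrb2 that were not tested, with blue points for Sham, red for AngII and a dashed line at 0.01. The 2 points below the line are both of the Htr2a probe ILMN_2725529.

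Serotonin constricts arteries through Htr2a, and Htr2b is a related receptor of vascular cells that also signals through Gq. The Htr2a probes ILMN_2649399 and ILMN_2725523 were detected on 0 of 23 arrays, and ILMN_2725529 on 2, a Sham thoracic array and an AngII mesenteric array, with levels from 4.31 to 5.08 over all arrays. The Htr2b probe ILMN_2589768 was detected on 19 arrays. It read 4.43, 4.61 and 4.38 in Sham thoracic aorta, all of them not above background, 5.37, 5.95 and 5.47 in Sham abdominal aorta, and 5.86, 6.18, 6.03, 6.01 and 5.90 in Sham mesenteric arteries. Thoracic aorta was below both other vessels without overlap, while abdominal and mesenteric arrays overlapped. Against the lowest detected signal of each thoracic array, Htr2b was at least 1.99-fold higher in mesenteric arteries (adjusted p = 3.41e-07) and at least 1.51-fold higher in abdominal aorta (adjusted p = 0.000595 from limma). Between abdominal aorta and mesenteric arteries the difference was −0.40 (95% interval −0.79 to −0.01, adjusted p = 0.0860) and did not pass. It passed without the abdominal array at 5.95 (−0.58, adjusted p = 0.0293), with cyclic loess normalization (−0.49, adjusted p = 0.0360), in a fit of the Sham groups of both vessels alone (adjusted p = 0.0307) and in the authors' values (−0.23, adjusted p = 0.00286). The summed fibroblast markers followed the same order, at 14.45 to 14.48 in thoracic, 14.88 to 14.96 in abdominal and 15.04 to 15.34 in mesenteric Sham arrays (6 of 8 lower and 0 higher in thoracic than in mesenteric vessels), and their part in the Htr2b levels was not tested.

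With AngII, Htr2b read 4.98, 4.64 and 4.97 in thoracic aorta, and 2 of these 3 arrays detected it against 0 of 3 in Sham. The AngII arrays lay just above the Sham arrays, and the lowest (4.64) stood near the highest Sham value (4.61). The measured difference of 0.39 (SE 0.12) had an adjusted p of 0.0534, which was 0.0203 without the AngII array at 4.64, 0.0410 without background correction, 0.0352 with cyclic loess and 0.0464 with transcripts detected on every array of a group, and no fold is given because the Sham values were not above background. In abdominal aorta the AngII values were 6.50, 5.81 and 5.37, spanning the Sham arrays (difference 0.30, 95% interval −0.30 to 0.89). In mesenteric arteries they ran from 5.97 through a median of 6.20 to 6.65 (0.23, −0.02 to 0.48), also with overlap.

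Tbxa2r encodes the thromboxane A2 receptor, a constrictor receptor of smooth muscle and an activating receptor of platelets. It was the tested receptor whose baseline level was higher in both aortic compartments than in mesenteric arteries. Probe ILMN_1248837 read 8.66, 8.62 and 8.58 in Sham thoracic aorta, 8.57, 8.64 and 8.67 in Sham abdominal aorta and 7.95, 7.80, 7.67, 7.98 and 7.97 in Sham mesenteric arteries. Probe ILMN_2737840 read 8.22, 8.06 and 7.74, then 7.87, 7.94 and 7.93, then 7.24, 7.30, 7.09, 7.15 and 7.23 in the same order of vessels. At both probes the aortic arrays lay above every mesenteric array and overlapped each other. Thoracic aorta was above mesenteric arteries by 0.75 (SE 0.11, 1.68-fold, adjusted p = 4.00e-06) and 0.81 (SE 0.11, 1.75-fold, adjusted p = 2.02e-06), and abdominal aorta by 0.75 (SE 0.11) and 0.71 (SE 0.11), by limma. Thoracic and abdominal aorta differed by −0.00 (95% interval −0.26 to 0.25) and 0.09 (−0.17 to 0.35). The probes had a Pearson r of 0.933 over the 23 arrays. Summed smooth muscle markers were also higher in both aortic compartments. Their log2 level was 16.34 to 16.41 on Sham thoracic, 16.34 to 16.38 on Sham abdominal and at most 16.24 on Sham mesenteric arrays. In the authors' values 5 of 12 markers were higher and 2 lower in thoracic than in mesenteric vessels. In abdominal aorta 3 were higher and 5 lower there. The part of smooth muscle content in the Tbxa2r levels was not tested.

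The baseline comparisons with mesenteric arteries depend on the scale between vessels. In the authors' log2 values the median difference of all transcripts was −0.28 between thoracic aorta and mesenteric arteries, −0.20 between abdominal aorta and mesenteric arteries and −0.12 between the aortic compartments, against 0.07, 0.05 and 0.01 here. Of the transcripts that differed, 7.37%, 14.4% and 24.3% were higher in the first vessel there, against 56.5%, 54.2% and 46.8% here. Tbxa2r was then above mesenteric arteries by 0.16 and 0.12 in thoracic aorta (adjusted p = 0.0560 and 0.0972) and by 0.08 and 0.04 in abdominal aorta (0.361 and 0.598), none of which passed. Relative to the median shift these were 0.44, 0.41, 0.28 and 0.24. For Avpr1a the abdominal excess over mesenteric arteries was 0.25 and 0.03 (adjusted p = 0.145 and 0.789), or 0.45 and 0.23 relative to the shift. P2rx1 and Ptgir passed with the same sign in all 3 comparisons of these values. The sizes changed for P2rx1 between abdominal aorta and mesenteric arteries (−1.13 and −1.07), and for Ptgir, at −1.19 between thoracic aorta and mesenteric arteries, −0.82 between abdominal aorta and mesenteric arteries and −0.37 between the aortic compartments. Htr2b passed between abdominal aorta and mesenteric arteries (−0.23, adjusted p = 0.00286 from limma), which was −0.03 relative to the shift. From thoracic aorta it differed by −0.69 against mesenteric arteries and −0.45 against abdominal aorta, both smaller than the bounds given above.

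AngII lowered Tbxa2r in the thoracic aorta. ILMN_1248837 read 8.24, 8.26 and 8.10 and ILMN_2737840 read 7.57, 7.48 and 7.36 in AngII arrays. Every AngII array lay below every Sham array at both probes. The differences were −0.42 (SE 0.09, 1.34-fold, adjusted p = 0.0141) and −0.54 (SE 0.13, 1.45-fold, adjusted p = 0.0238) by limma. The first passed under every alternative run (adjusted p = 0.00261 to 0.0496), and the second missed the threshold without a detection filter (0.0586), without the Sham array at 8.22 (−0.43, adjusted p = 0.0725), without the Sham array at 8.06 (0.0780) or without the AngII array at 7.36 (0.0766). Smooth muscle markers fell in the same arrays, 5 of 12 lower and 0 higher (median −0.31), and their summed log2 level was 16.10 to 16.18 with AngII and 16.34 to 16.41 with Sham. Their part in the Tbxa2r difference was not tested.

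Outside the thoracic aorta Tbxa2r did not pass. In abdominal aorta the AngII arrays read 8.47, 8.50 and 8.51 at ILMN_1248837, just below the Sham arrays, and 7.96, 7.90 and 7.88 at ILMN_2737840, among them. The differences were −0.13 (95% interval −0.36 to 0.10) and −0.00 (−0.23 to 0.23). In mesenteric arteries the AngII arrays ran from 7.92 through a median of 7.99 to 8.53 and from 7.05 through 7.41 to 7.64, overlapping Sham at both probes, with differences of 0.22 (−0.02 to 0.45) and 0.17 (−0.04 to 0.38).

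The AngII effect itself was compared between vessels in a fit of all 6 groups, in which the vessels' own Sham arrays were the reference. Between thoracic and mesenteric vessels the effect on Tbxa2r differed, by −0.64 (SE 0.15, adjusted p = 0.00895) and −0.71 (SE 0.16, adjusted p = 0.00500) from limma, so that 2 of 8 probes passed, both lower, against 11.4% of all transcripts (5.99% lower). Both passed under every alternative run, with adjusted p from 0.00394 to 0.0329 and from 0.00131 to 0.0237. Of the 12 smooth muscle markers, 7 differed in the same direction and 0 in the other (median −0.56), and their part in this difference was not tested. Between abdominal aorta and mesenteric arteries 0 of 8 probes passed by limma against 1.85% of all transcripts. At an unadjusted p under 0.05 stood 1 of the 8 (Tbxa2r ILMN_1248837, difference −0.35, adjusted p = 0.273), beside 3120 of all 20585 transcripts. Between thoracic and abdominal aorta 0 of 8 passed against 0.452%. An unadjusted p under 0.05 was reached by 2 of the 8, beside 2005 of all 20585 transcripts. These were Avpr1a ILMN_2890935 (difference 0.97, adjusted p = 0.208 from limma) and Tbxa2r ILMN_2737840 (−0.53, adjusted p = 0.249).

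**Figure D4:**
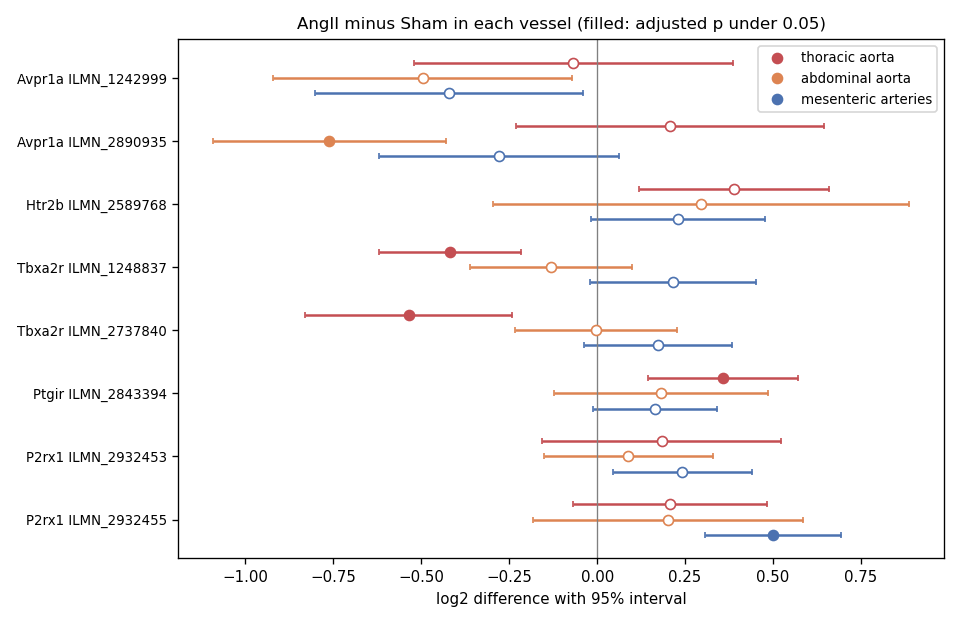
Log2 difference between AngII and Sham (horizontal axis, with 95% intervals from limma) for each receptor probe in thoracic aorta (red), abdominal aorta (orange) and mesenteric arteries (blue), filled where the adjusted p was under 0.05. Tbxa2r fell in thoracic aorta by −0.42 and −0.54 while its mesenteric values were 0.22 and 0.17, and the 3 other filled points are Avpr1a in abdominal aorta, Ptgir in thoracic aorta and one P2rx1 probe in mesenteric arteries.

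Ptgir, the prostacyclin receptor, relaxes smooth muscle and restrains platelets through cyclic AMP. Its probe ILMN_2843394 read 5.10, 5.07 and 4.96 in Sham thoracic aorta, where 2 of 3 arrays detected it, 5.81, 5.87 and 5.56 in Sham abdominal aorta and 7.29, 7.17, 7.11, 7.08 and 7.35 in Sham mesenteric arteries. The vessels did not overlap, with thoracic aorta lowest and mesenteric arteries highest. The thoracic level was 4.45-fold below mesenteric arteries (−2.15, SE 0.10, adjusted p = 2.92e-14) and 1.63-fold below abdominal aorta (−0.70, SE 0.11, adjusted p = 9.13e-05), and the abdominal level was 2.74-fold below mesenteric arteries (−1.45, SE 0.10, adjusted p = 4.70e-11), by limma. Endothelial markers had the same order of summed log2 levels, at 12.70 to 12.86, 13.06 to 13.65 and 14.39 to 14.58, and 10 of 10 were lower in thoracic than in mesenteric vessels and 7 of 10 lower than in abdominal aorta. Macrophage markers lay at 11.87 to 12.05, 12.12 to 12.36 and 13.18 to 13.41, with 9 of 9 lower in thoracic than in mesenteric vessels. The part of these cells in the Ptgir signal was not tested.

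With AngII the thoracic arrays of Ptgir read 5.47, 5.45 and 5.29, all detected and all above the highest Sham array (5.10). The difference was 0.36 (SE 0.09, 1.28-fold, adjusted p = 0.0316 from limma). It did not pass in the authors' values (0.08, adjusted p = 0.143), with a larger offset of 50 (0.19, adjusted p = 0.0699), with a variance prior that follows the signal (0.0528) or without any one array other than the AngII array at 5.29 (0.0599 to 0.0927). In the same arrays 4 of 9 macrophage markers and 4 of 8 fibroblast markers were higher with AngII and 0 lower, and of 10 endothelial markers 2 were higher and 1 lower. Their summed log2 levels were 12.18 to 12.94 with AngII and 11.87 to 12.05 with Sham for macrophages, 14.71 to 14.91 and 14.45 to 14.48 for fibroblasts, and 12.75 to 12.85 and 12.70 to 12.86 for endothelium. Whether these cells took part in the Ptgir difference was not tested. In abdominal aorta Ptgir read 5.80, 6.13 and 5.86 with AngII, and in mesenteric arteries it ran from 7.20 through a median of 7.32 to 7.54. Both overlapped Sham, with differences of 0.18 (95% interval −0.12 to 0.49) and 0.16 (−0.01 to 0.34).

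Bdkrb2, the constitutive bradykinin receptor, was not detected. Its probe ILMN_1241487 had detection on 0 of 23 arrays and a lowest detection p of 0.176, with levels from 4.20 to 4.46.

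The transcripts that followed P2rx1 most closely were sought because its Sham means had the widest range among the receptors. Over the 23 arrays and 10954 other genes, Pearson r with probe ILMN_2932453 was highest for Susd2 (0.988), the actin-associated protein gene Palld (0.983), the transcription factor gene Tcf21 (0.983), Podn (0.972) and Tmem51 (0.972). The mean Sham level of Palld was 8.80 in thoracic aorta, 10.95 in abdominal aorta and 11.10 in mesenteric arteries. That of Tcf21 was 4.51 (not above background), 7.15 and 8.55, and that of Susd2 6.89, 8.56 and 8.89. All 5 were lowest in thoracic aorta and highest in mesenteric arteries, and these correlations rest mainly on the contrast between vessels that the arrays share.

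Receptors of the same families as the members were examined beside them. P2rx4, another ATP-gated channel, was also lower in thoracic than in mesenteric Sham vessels (−0.36, SE 0.07), and it was higher with AngII in thoracic aorta (0.38, SE 0.09, adjusted p = 0.0243 from limma). P2rx7 differed from mesenteric arteries by −0.62 in thoracic aorta and did not pass for AngII (0.22, SE 0.16). The alpha2 adrenergic receptor Adra2c was detected on 0 of 3 Sham thoracic arrays and was at least 1.999-fold higher in Sham mesenteric arteries and at least 1.06-fold higher in AngII thoracic aorta (adjusted p = 0.0249), where 3 of 3 arrays detected it. The serotonin receptor Htr1b had the order of Tbxa2r, being detected on 0 of 5 Sham mesenteric arrays and at least 1.49-fold higher in thoracic and 1.46-fold higher in abdominal aorta, with no AngII difference that passed. The prostaglandin E receptor Ptger3 was lower in thoracic than in mesenteric vessels (−1.70, SE 0.23). The angiotensin receptor Agtr1b shared the order of Avpr1a, detected on 0 of 3 Sham thoracic arrays, at least 2.996-fold higher in mesenteric arteries and at least 6.34-fold higher in abdominal aorta, while Agtr1a was lower in both aortic compartments (−2.07 and −1.62, SE 0.10 each) and higher with AngII in thoracic aorta (0.35, SE 0.10, adjusted p = 0.0408). In the authors' values these receptors kept their signs, but 3 differences did not pass by limma. These were Htr1b between thoracic aorta and mesenteric arteries (0.07, adjusted p = 0.102) and, with AngII in thoracic aorta, Adra2c (0.07, adjusted p = 0.194) and Agtr1a (0.12, adjusted p = 0.0638). Between Sham thoracic aorta and mesenteric arteries Agtr1b there differed by −0.91 and Adra2c by −0.64. Between the aortic compartments Agtr1b differed by −1.15. These 3 sizes were smaller than the bounds above. Avpr1b, Avpr2, Htr2c, Htr7, Ptgfr, Ptger2, Ptger4 and Bdkrb1 had probes that were detected on fewer than 3 arrays, and Adra2a, Adra2b, Ptger1 and Ednra carried no annotated probe.

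Among 13 other contractile receptors tested of 24 listed, 7 rose and 0 fell with AngII in thoracic aorta, with a median log2 difference of 0.38 against −0.02 over all transcripts, where 8.63% rose and 8.62% fell. The list includes Agtr1a, Agtr1b, Ptger3, Htr1b and Adra2c, already given above as family receptors. Of these, Agtr1a and Adra2c were among the 7 that rose, and neither passed in the authors' values. In the authors' values 6 of the list rose and 0 fell. Those with the smallest adjusted p were the UDP receptor P2ry6 (0.68, SE 0.10, adjusted p = 0.00279), the sphingosine-1-phosphate receptor S1pr2 (0.54, SE 0.10, adjusted p = 0.00622), the endothelin receptor Ednrb, which endothelium also carries (0.72, SE 0.14, adjusted p = 0.0113), and the lysophosphatidic acid receptor Lpar1 (0.41, SE 0.09, adjusted p = 0.0159), by limma. Markers of other cell types were higher in the same thoracic arrays, as were those of macrophages and fibroblasts, with white adipocyte markers summing to 13.15 to 13.19 with AngII and 11.71 to 12.32 with Sham (4 of 7 higher) and mast cell markers to 8.56 to 9.33 and 7.89 to 8.41 (3 of 5 higher). Their part in the receptor differences was not tested. In abdominal aorta and mesenteric arteries 0 of the 13 passed, where only 1.09% and 0.340% of all transcripts did. In the authors' values 0 of the 13 passed too, beside 19 and 142 of all 20585 transcripts. At baseline 10 of the 13 were lower and 1 higher in thoracic than in mesenteric vessels (median −1.27 against 0.07 over all transcripts), or 12 lower and 0 higher in the authors' values. Of 6 other dilator receptors tested of 25 listed, 1 fell and 0 rose with AngII in thoracic aorta, namely Ramp1, the partner protein of the CGRP receptor (−0.36, SE 0.09, adjusted p = 0.0325), whose Sham level was 2.18 higher on the log2 scale in thoracic than in mesenteric vessels. In mesenteric arteries Ramp1 differed the other way with AngII (0.37, SE 0.08, adjusted p = 0.0667), a difference that did not pass by limma here and passed in the authors' values (0.34, adjusted p = 0.0346), and the AngII effect on it differed between thoracic and mesenteric vessels (−0.72, SE 0.12, adjusted p = 0.000464 from limma). At baseline 4 of the 6 were higher and 2 lower there (median 0.71), or 2 higher and 2 lower in the authors' values (median −0.02).

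Downstream of the constrictor receptors, 19 of 24 genes for G proteins, phospholipases and inositol trisphosphate receptors were tested, and 1 rose and 4 fell with AngII in thoracic aorta, beside 8.63% and 8.62% of all transcripts, or 1 rose and 7 fell in the authors' values. Ppp1r14a, which encodes the myosin phosphatase inhibitor CPI-17, fell (−0.77, SE 0.10, adjusted p = 0.00123), as did the protein kinase gene Rock1 (−0.57, SE 0.10, adjusted p = 0.00618), Gna12 (−0.47, SE 0.09, adjusted p = 0.00834) and Plcb4 (−0.51, SE 0.12, adjusted p = 0.0228), by limma. Downstream of Ptgir, 15 of 17 genes for Gs, adenylyl cyclases and protein kinase A were tested, and 2 rose and 2 fell, or 1 and 2 in the authors' values. Hspb6, a small heat shock protein phosphorylated by protein kinase A in relaxing muscle, fell (−0.48, SE 0.10, adjusted p = 0.0126 from limma). The catalytic subunit gene Prkacb also fell (−0.31, SE 0.09, adjusted p = 0.0461). Adcy4 (0.37, SE 0.09, adjusted p = 0.0285) and the regulatory subunit gene Prkar2b (1.02, SE 0.27, adjusted p = 0.0346) rose. Prkar2b did not pass in the authors' values. The medians of both lists, −0.08 and −0.18, stood beside −0.02 over all transcripts. In the same thoracic arrays summed smooth muscle markers stood at 16.10 to 16.18 with AngII and 16.34 to 16.41 with Sham. White adipocyte markers stood at 13.15 to 13.19 with AngII and 11.71 to 12.32 with Sham. The part of these cells in the differences of both lists was not tested. Of 10 tested receptor kinases, arrestins and RGS proteins 0 passed by limma and 1 fell in the authors' values (Rgs4, −0.14, adjusted p = 0.0474), and of 9 tested genes of ligand synthesis and clearance 1 rose, the angiotensin converting enzyme gene Ace (0.57, SE 0.09, adjusted p = 0.00443). In abdominal aorta and mesenteric arteries 0 genes of these 4 lists passed for AngII by limma, where only 1.09% and 0.340% of all transcripts did. In the authors' values 2 passed in mesenteric arteries, named here after their values were seen, Hspb6 (0.40, adjusted p = 0.0292) and the prostacyclin synthase gene Ptgis (0.45, adjusted p = 0.0472), both higher with AngII, where the differences were 0.36 and 0.43 here (adjusted p = 0.0610 and 0.0673).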

How the data were processed

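Per the labels and the study's methods, RNA pools were hybridised to Illumina WG-6 v2.0 BeadChips and scanned on a HiScan system. The authors deposited intensity values without normalization between arrays, each with a detection p-value, and log2 values, which lumi (R 3.0.2) had normalised by robust splines. Each intensity column was placed in a group by its vessel and treatment initials, and for 23 of 23 columns the closest column of the authors' values was of the same group.

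In R 4.3.3, limma 3.58.1 converted the intensities with neqc (offset 16, negative controls inferred from detection p-values). A transcript needed a detection p below 0.01 on 3 or more arrays. Each vessel had its own fit of AngII against Sham, while vessels and interactions used a fit of 6 group means. Tests were moderated and two-sided, and p-values were adjusted by the Benjamini-Hochberg method over all 20585 transcripts. The fits were checked on simulated data. For a probe not detected in any array of a group, that group was set to each array's lowest detected signal and the fold is a lower bound. Such a bound holds on the signal scale used here, and the adjusted p beside it tests the measured difference. Arrays have no sequencing depth, and their number limits the precision. Of the probes, 34885 carry 1 symbol, 18 several and 10378 none. A gene outside the set was given by its probe with the highest mean. Motifs and figures used Python 3.11.15 and matplotlib 3.10.9. The receptors, related gene lists and markers were chosen with earlier results of these data known. Named genes were all receptor probes, family members, and up to 4 genes per list with the smallest adjusted p in an AngII comparison. Alternatives covered the authors' values, background, normalization, offset, filters, variance prior, fit, arrays rich in another tissue and each array left out.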

Additional observations from a re-analysis of the deposited data

Results flagged for a closer look

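An interaction test in limma separated the AngII effect on Tbxa2r in thoracic aorta from that in mesenteric arteries, by −0.64 at ILMN_1248837 and by −0.71 at ILMN_2737840 on the log2 scale, since the receptor fell with AngII in thoracic aorta (−0.42 and −0.54) and had values of 0.22 and 0.17, which did not pass, in mesenteric arteries. Among 16 sets of mesenteric arrays examined for an array far from the others (8 probes, AngII and Sham), 0 held one.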

How the results depend on the processing

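Over the alternatives run for the 8 probes and 9 comparisons, the outcome of single probes stayed the same in 1371 cases. These include differences that passed neither time. A call was lost in 50 cases, gained in 9 and reversed in 0. In 50 cases a difference that passed neither way changed sign. The thoracic AngII calls were lost in 0 of 17 (Tbxa2r ILMN_1248837), 4 of 17 (Tbxa2r ILMN_2737840) and 9 of 17 alternatives (Ptgir). The abdominal call of Avpr1a ILMN_2890935 was lost in 10 of 18, and the mesenteric call of P2rx1 ILMN_2932455 in 11 of 23. The count of probes passing for AngII in abdominal aorta (1) was 0 with the authors' values, without background correction, without a detection filter, without the array rich in skeletal muscle RNA and with the replicate block. That in mesenteric arteries (1) was 0 without a filter, without the arrays rich in pancreatic RNA and with the replicate block. The count for Sham abdominal aorta against mesenteric arteries (7) was 4 with the authors' values, where 14090 of 20585 transcripts differed. That for Sham thoracic aorta against mesenteric arteries (8) was 6, as neither Tbxa2r probe passed, where 17907 of 20585 differed. That between the aortic compartments (6) stayed at 6, where 12051 of 20585 differed. For AngII, leaving out one array gave 1 to 3 probes in thoracic aorta (1 without the Sham array at 8.22 or at 8.06 for Tbxa2r), 0 to 1 in abdominal aorta and 0 to 1 in mesenteric arteries. The cause was not tested. Counts over all transcripts ranged, beyond single arrays left out, from 2944 to 4009 in thoracic aorta (3552 here), from 2 to 979 in abdominal aorta (225) and from 0 to 391 in mesenteric arteries (70), the lowest abdominal and mesenteric counts with the replicate block and the highest in a single fit of 6 groups. Leaving out one array gave 1972 to 2909, 0 to 500 and 0 to 153, so that the shares of all transcripts beside the receptor counts moved with single arrays. The authors' values gave 17907, 14090 and 12051 in the Sham comparisons (10655, 9449 and 2840), and 142 for the interaction of abdominal aorta and mesenteric arteries (380). The share of AngII calls that were higher was 62.6% with cyclic loess against 50% in thoracic aorta, and with the authors' values 100% against 88.9% in abdominal aorta and 73.2% against 84.3% in mesenteric arteries. For the interactions it was 61.3% against 71.6% (abdominal and mesenteric) and 56.1% against 66.7% (thoracic and abdominal).

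Whether the replicate numbers of the titles pair the samples was not settled. Deviations of same-numbered arrays correlated from −0.53 to 0.86, and the same-numbered array was the closest partner for some arrays and not others. Such a spread cannot decide pairing, and the main fits treated arrays as unpaired. The replicate block was fitted on the authors' values only. A chip block was not run because the column names give no chip. Htr2b in Sham thoracic aorta lay at background, so that differences from it are bounds at most, and no differences were computed for Adra1b, Htr2a and Bdkrb2. The offset shrinks differences of dim probes such as Htr2b and Ptgir.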

Other observations

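Of 19 tested genes for G proteins, phospholipases and inositol trisphosphate receptors, 10 were higher and 6 lower in thoracic than in mesenteric Sham vessels by limma (median log2 difference 0.23), and of 15 for Gs, adenylyl cyclases and protein kinase A, 8 were higher and 4 lower (median 0.24). In the authors' values these were 3 higher and 12 lower (median −0.21) and 3 higher and 8 lower (median −0.20). Among 10 receptor kinases, arrestins and RGS proteins 2 were higher and 5 lower (median −0.53), and among 9 genes of ligand synthesis and clearance 3 were higher and 4 lower (median −1.09), with a median of 0.07 over all transcripts. In the authors' values they were 1 higher and 8 lower, and 2 higher and 5 lower. These lists were not tested as sets.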
